A study of Mus musculus with 8 samples.

Results

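Blood clotting in the liver of mice was described here through 37 genes of coagulation and fibrinolysis. They were listed by name for their known roles, at a time when other results of these data were known, and the rule for membership used no measured value. A gene was taken where the array's annotation gives a transcript cluster (the set of probes read as 1 gene) exactly 1 gene symbol equal to the listed name. That found 35 of the 37, out of 22180 genes named this way, and Klkb1 and Cpb2 had no such cluster. Each of the 35 had a single cluster, so no choice among clusters was made.

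Liver RNA was read on Affymetrix Mouse Gene 2.0 ST arrays, from livers of male C57BL/6J mice, 3 wild type (WT) and 5 with a knockout of Abhd15 (KO), 1 array per liver. All mice ate normal chow, and by the design text were 14 weeks old and had been fasted overnight and refed with chow for 1 hour before harvest, while the sample labels put the time on chow at up to 14 weeks. The product of Abhd15 belongs to the alpha/beta hydrolase family and has been studied mostly in adipocytes, and the comparison asks what its loss does to liver transcripts soon after eating. Each label speaks of 1 mouse without naming animals, so the spread behind each p-value is that between these arrays, which may be technical in part, and the labels do not say how the knockout was made.

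Clotting is a chain of serine proteases, most of them made by hepatocytes and secreted as inactive precursors, that ends with thrombin cutting fibrinogen to fibrin. Tissue factor starts the chain on cell surfaces, and cofactors speed the steps. Antithrombin, the protein C system and tissue factor pathway inhibitor restrain it, and plasmin, released from plasminogen, dissolves the clot. Several of these proteins need a vitamin K dependent change of glutamate residues to bind membranes. Some members are mainly endothelial in the liver: factor VIII is made by sinusoidal endothelium, and von Willebrand factor and thrombomodulin by endothelium of vessels.

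Abhd15 itself had 2 clusters, and the brighter read 5.65, 5.81 and 5.46 (log2 values) in WT livers and 5.14, 5.04, 5.21, 5.17 and 5.04 in KO livers. All KO arrays lay below all WT arrays, with a log2 difference of -0.52 (SE 0.129) and an exact two-sided permutation p of 0.0179, the lowest possible with 56 splits of 8 arrays. Its adjusted p over all clusters was 0.795 in limma. The dimmer cluster read 4.11, 4.36 and 3.07 in WT livers and 2.55, 3.05, 3.03, 3.33 and 3.84 in KO livers, with overlapping groups, 3 of 5 KO arrays below all WT arrays, a log2 difference of -0.68 (SE 0.323) and an adjusted p of 0.838 in limma. Where the probes of either lie relative to the deleted part is not stated. The array medians lay between 2.99 and 3.05. KO arrays 1 and 2 stood apart on the first principal component over all clusters (18% of the variance), scoring 55.2 and 50.8 against 0.22 for the next array, and KO array 4 stood apart on the second, at -70 against -10.6 for the next. The hepatocyte markers fixed for this work averaged 10.8 to 10.9 over the WT arrays and 10.7 to 11 over the KO arrays, with Fgf21 the 1 of 10 under a log2 value of 5.

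None of the 35 genes passed an adjusted p of 0.05 in the comparison of KO with WT, where limma was fitted and Benjamini-Hochberg adjusted over all 23521 clusters with 1 symbol. The smallest adjusted p of a member was 0.798, and over all clusters 0 were called (0%). At an unadjusted p under 0.05 there was 1 member, Pros1, higher in KO, where 6.08% of all clusters lay under that p in either direction and 2.75% with a higher mean in KO. The arrays of the groups did not overlap in 1 member, Hrg, against 4.43% of all clusters in either direction and 1.99% with KO higher. A count of 1 in 35 is near these shares.

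The differences leaned one way by small amounts. The mean was higher in KO for 27 of 35 members, against 49.6% of all clusters, with a median log2 difference of 0.087 beside -0.0018. Among the 26 members with a mean log2 value of at least 5, 22 were higher, against 40.1% of the 7699 clusters at that level. The median log2 difference of these 26 was 0.086, beside -0.040 for all clusters at that level. The other 9 members (F3, Vwf, F13a1, Tfpi, Thbd, Procr, Plat, Plau and Plaur) had means under 5, where it is not shown that the signal exceeds background. The 95% interval of the difference stayed within 1 log2 unit either way for 34 of 35 members, Plaur being the exception, and within 0.70 for all 26 brighter ones.

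**Figure D1:**
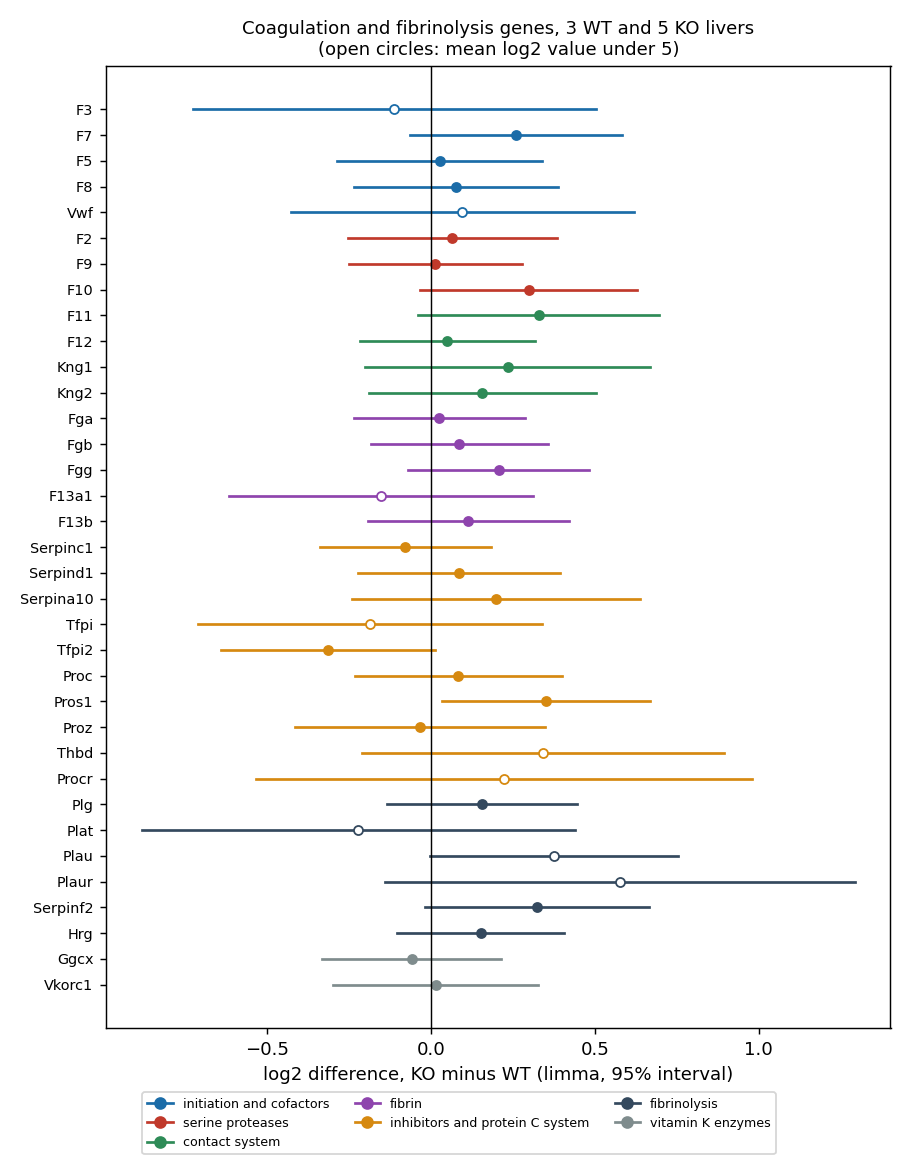
Log2 difference (KO minus WT, x axis) of the 35 measured coagulation and fibrinolysis genes (y axis), as points with limma's 95% interval, coloured by role, from 3 WT and 5 KO arrays. Most points lie to the right of 0, the interval of Pros1 alone leaves out 0, and those of Procr and Plaur are the widest.

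The KO livers differed among themselves in this. Of the 26 brighter members, 23, 22 and 22 lay above the gene's mean over all arrays in KO arrays 1, 2 and 3, but 10 and 4 in KO arrays 4 and 5. In WT arrays 1, 2 and 3 the counts were 6, 8 and 12. The median log2 deviation of the 26 from their own means was 0.13, 0.13, 0.097, -0.053 and -0.15 across the KO arrays against -0.17, -0.048 and -0.013 in the WT arrays, so the groups overlapped. KO array 5 was the lowest array for 9 of the 26 genes and WT array 1 for 10, while KO array 1 was the highest for 10. Over all 7699 clusters at that level the same median ran from -0.094 (KO array 4) to 0.035 (WT array 1). Without KO arrays 1 and 2, 16 of the 26 were higher, against 39.6% of clusters, and their median log2 difference was 0.039. That median was 0.15 without KO array 5, and 18 of 26 were higher without WT array 1.

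**Figure D2:**
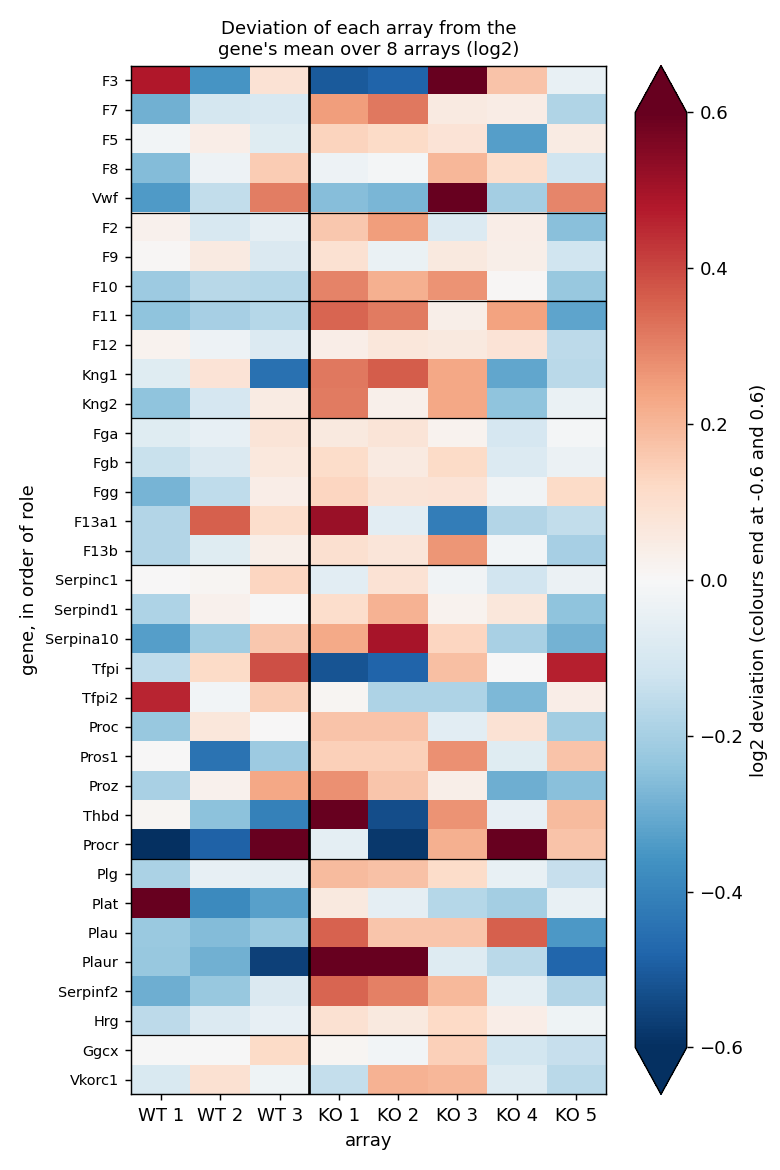
Log2 deviation of each of 8 arrays (x axis) from the gene's mean over all arrays, for the 35 genes in order of role (y axis; lines part the roles, the thick line parts WT from KO). Red in KO arrays 1 to 3 and blue in WT array 1 and KO array 5 recur through most genes with means of at least 5. Exceptions include Tfpi2, which is highest in WT array 1. The strong colours of F3, Vwf, Tfpi, Thbd, Procr, Plat and Plaur belong to genes with means under 5.

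**Figure D3:**
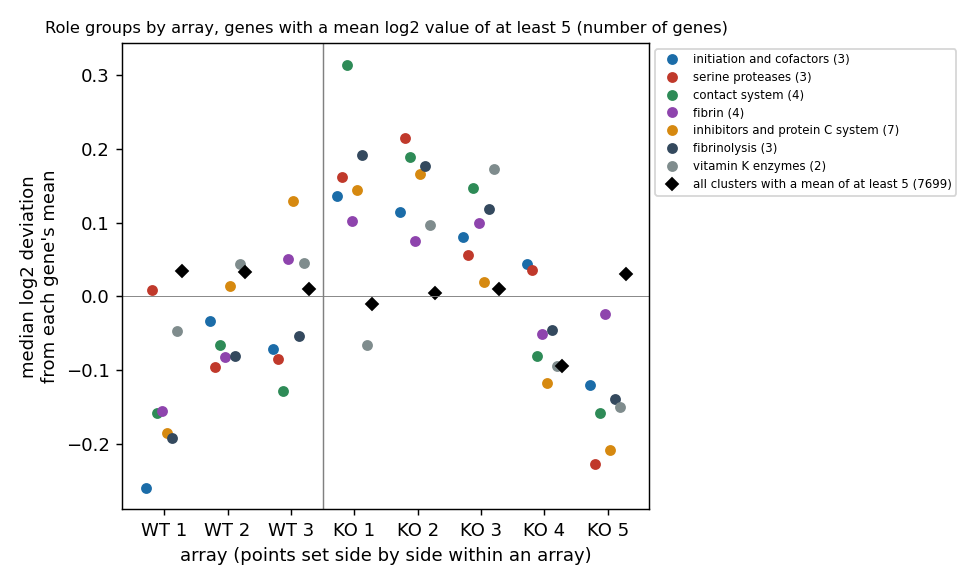
Median log2 deviation from each gene's mean (y axis) by array (x axis) for 7 role groups, using the 26 genes with means of at least 5, beside all 7699 clusters at that level (diamonds). In KO array 5 all 7 groups lie below 0 and in KO arrays 2 and 3 all lie above 0, while the diamonds stay between -0.094 and 0.035.

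The starter and cofactors of the cascade were 4 of 5 higher in the KO mean, with none past the threshold. F7, the protease that tissue factor binds, read 8.84 ± 0.109 (SD, n = 3) in WT against 9.1 ± 0.195 (SD, n = 5) in KO, giving a log2 difference of 0.26 (SE 0.146, 95% interval -0.063 to 0.58), and 4 of 5 KO arrays lay above all WT arrays. F8, the cofactor of factor IX, read 7.33, 7.56 and 7.75 in WT livers, against 7.56, 7.58, 7.79, 7.70 and 7.47 in KO livers. Its groups overlapped, with the lowest value in WT array 1, and it had a log2 difference of 0.075 (SE 0.14, 95% interval -0.24 to 0.39), which was -0.031 without that array. F5, the cofactor of factor X, had a difference of 0.026 (SE 0.142), with KO array 4 the lowest of all arrays at 10.43, and a value of -0.0053 without KO array 1, -0.0001 without KO array 2 and -0.0016 without WT array 3. F3, tissue factor, was dim and read 5.06, 4.23 and 4.67 in WT livers, against 4.08, 4.10, 5.24, 4.76 and 4.54 in KO livers, with KO arrays 1 and 2 the lowest and KO array 3 the highest. Its log2 difference of -0.11 (SE 0.278, 95% interval -0.73 to 0.50) became 0.092 without WT array 1, 0.0033 without KO array 1 and 0.19 without KO arrays 1 and 2 together. Vwf, which carries factor VIII in plasma and tethers platelets, was dim too and read 3.56, 3.76 and 4.21 in WT livers, against 3.65, 3.63, 4.52, 3.70 and 4.20 in KO livers. KO array 3 was the highest and the groups overlapped, with a log2 difference of 0.096 (SE 0.237, 95% interval -0.43 to 0.62) that was -0.045 without WT array 1 and -0.049 without KO array 3. In whole liver, fewer cells of a type and less RNA per cell cannot be told apart. The sinusoidal endothelial markers averaged 7.03 to 7.08 over the WT arrays and 6.98 to 7.18 over the KO arrays, with all 10 at means of 5 or more. Single ones differed by -0.28 (Dnase1l3) to 0.65 (Lyve1), with 5 of 10 higher in KO, against 40.1% of clusters at that level. The large vessel markers averaged 4.94 to 5.04 over the WT arrays and 4.97 to 5.4 over the KO arrays, with 5 of 10 (Cd34, Sele, Selp, Rspo3 and Wnt2) under 5. Single ones differed by -0.34 (Rspo3) to 0.74 (Selp), with 6 of 10 higher in KO, against 49.6% of all clusters. The part of both marker lists in the values of F8 and Vwf was not tested.

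The 3 serine proteases of the common and intrinsic steps all had higher means in KO, by different amounts. F2, prothrombin, read 10.66, 10.54 and 10.58 in WT livers, against 10.80, 10.89, 10.55, 10.68 and 10.38 in KO livers. KO arrays 1 and 2 were the highest and KO array 5 the lowest, and the log2 difference of 0.065 (SE 0.144, 95% interval -0.25 to 0.38) was -0.056 without KO arrays 1 and 2 and ran from 0.0085 to 0.13 over single omissions. F9, the factor lacking in hemophilia B, differed by 0.013 (SE 0.119), which fell below 0 in 3 single omissions, to -0.026 at the lowest, without WT array 3. F10, which cuts prothrombin, read 8.64 ± 0.0295 (SD, n = 3) in WT against 8.94 ± 0.222 (SD, n = 5) in KO, giving a log2 difference of 0.30 (SE 0.149, 95% interval -0.032 to 0.63). Its 3 WT arrays lay between 8.61 and 8.66 and 4 KO arrays lay above them. KO array 5 was nearly level with the lowest WT array, at 8.602 against 8.609 for WT array 1.

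In the contact system, which starts clotting on charged surfaces and releases bradykinin, the means of all 4 measured genes were higher in KO and none passed the threshold. F11 read 8.43, 8.47 and 8.50 in WT livers, against 9.02, 8.98, 8.70, 8.91 and 8.35 in KO livers. KO arrays 1 to 4 lay above all WT arrays and KO array 5 below them, and the log2 difference of 0.33 (SE 0.166, 95% interval -0.040 to 0.70) was 0.19 without KO arrays 1 and 2. F12, the factor that starts the contact pathway, differed by 0.049 (SE 0.121), or 0.023 to 0.093 in single omissions, with the same order, 4 KO arrays above all WT arrays and KO array 5 below. The kininogen genes Kng1 and Kng2, which encode the carriers of bradykinin, differed by 0.23 (SE 0.196) and 0.16 (SE 0.156). The difference of Kng1 was 0.083 with WT array 3 left out and 0.35 with WT array 2 left out, and that of Kng2 was 0.084 with WT array 1 left out and 0.093 with KO array 1 left out. Without KO arrays 1 and 2 they were 0.066 and 0.081. They are close copies, and whether their probes separate them was not tested.

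Fibrinogen is built from 3 chains, encoded side by side by Fgb, Fga and Fgg, and these genes are known to respond to interleukin-6 in the acute phase of inflammation. Fga read 11.06, 11.09 and 11.21 in WT livers, against 11.19, 11.21, 11.15, 11.03 and 11.12 in KO livers. Its values overlapped throughout, and the log2 difference of 0.025 (SE 0.118, 95% interval -0.24 to 0.29) was -0.0053 without WT array 1. Fgb read 12.28, 12.32 and 12.47 in WT livers, against 12.52, 12.47, 12.53, 12.33 and 12.38 in KO livers, with WT arrays 1 and 2 the lowest and a log2 difference of 0.087 (SE 0.122, 95% interval -0.18 to 0.36) that ran from 0.046 to 0.14 in single omissions. Fgg read 11.67, 11.79 and 11.98 in WT livers, against 12.07, 12.02, 12.03, 11.93 and 12.06 in KO livers. WT array 3 alone lay among the KO values, and the log2 difference of 0.21 (SE 0.125, 95% interval -0.069 to 0.48) was the largest of the 3 chains, at 0.13 without WT array 1 and 0.29 without WT array 3. No chain passed the threshold, and whether the chains differ from each other in response was not tested. F13b, the carrier subunit of the factor that cross-links fibrin, differed by 0.11 (SE 0.139), or 0.059 to 0.17 in single omissions, and its catalytic partner F13a1, known from macrophages and platelets, was dim and differed by -0.15 (SE 0.21), or -0.30 to -0.021. The acute phase list fixed for this work had 16 of 19 measured genes higher in KO. All 19 had means of at least 5, where 40.1% of clusters were higher. It had 0 genes past the adjusted threshold. At an unadjusted p under 0.05 in limma it had 3 (Serpina3n and the metallothioneins Mt1 and Mt2), all higher in KO. That p was reached with KO higher by 2.75% of all clusters, and by 137 of the 7699 with means of at least 5. The 3 genes lower in KO were Apcs (-0.10), Crp (-0.12) and Cp (-0.025). The list's mean level was 8.9 to 9.44 over the WT arrays and 8.85 to 10.1 over the KO arrays. Its median deviation was highest in KO array 1 (0.39) and lowest in KO array 4 (-0.35), and its part in the fibrinogen values was not tested.

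**Figure D4:**
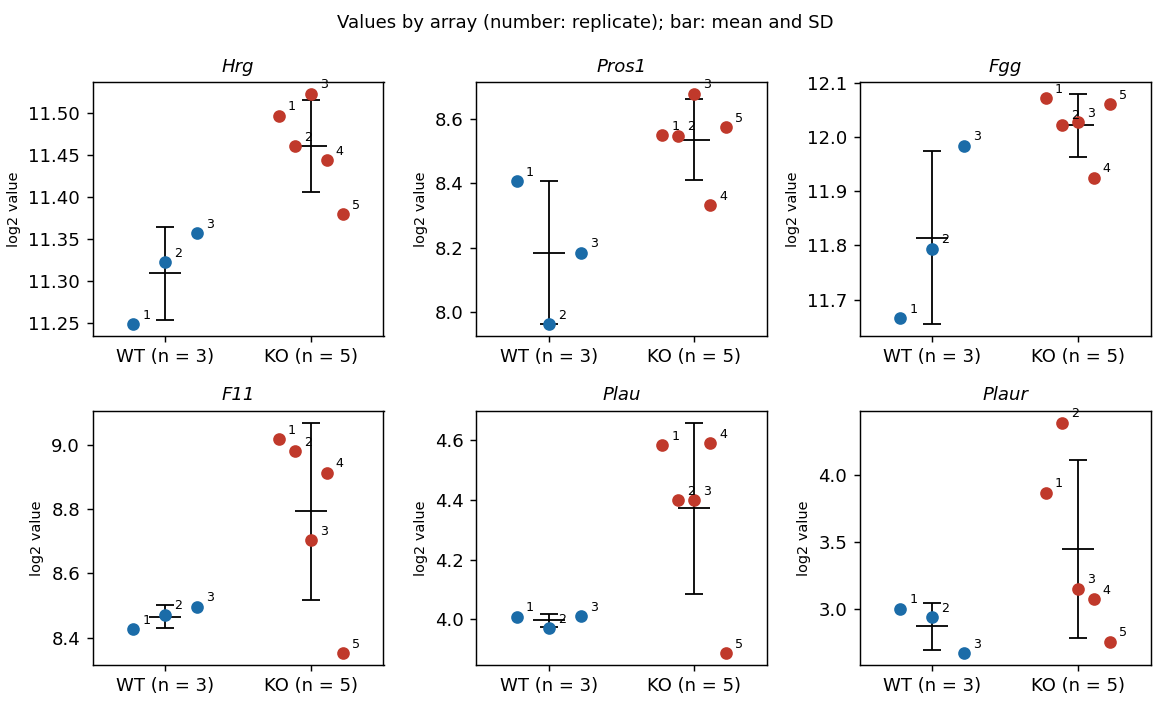
Log2 values (y axis) of Hrg, Pros1, Fgg, F11, Plau and Plaur in 3 WT (blue) and 5 KO (red) arrays, each point labelled with its replicate number, and bars for the mean and SD. Hrg alone has no overlap between the groups, KO array 5 lies below all WT arrays in F11 and Plau, and KO arrays 1 and 2 lie far above the other arrays in Plaur.

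The promoters of the fibrinogen genes are shown because the chains are known to be made together and their array values differed little between the groups. Sequences are RefSeq's for GRCm38.p6, from 250 bases before to 50 after the start of the gene, 5′ to 3′ on the gene's strand. Capitals mark matches on either strand to GTTAAT (a half-site of HNF1, a factor of hepatocytes), TTNNGNAA (C/EBP) or TTCNNNGAA (STAT), where N is any base and matches may overlap. Fga lies at chr3:83025903-83026202 (+ strand), Fgb at chr3:83049814-83050113 (- strand) and Fgg at chr3:83007474-83007773 (+ strand).
Fga: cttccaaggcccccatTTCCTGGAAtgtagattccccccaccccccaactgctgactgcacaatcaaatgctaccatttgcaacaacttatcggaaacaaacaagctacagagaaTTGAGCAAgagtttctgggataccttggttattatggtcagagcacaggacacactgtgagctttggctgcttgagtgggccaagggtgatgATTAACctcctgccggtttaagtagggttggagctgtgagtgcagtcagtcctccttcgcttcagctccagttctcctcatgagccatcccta
Fgb: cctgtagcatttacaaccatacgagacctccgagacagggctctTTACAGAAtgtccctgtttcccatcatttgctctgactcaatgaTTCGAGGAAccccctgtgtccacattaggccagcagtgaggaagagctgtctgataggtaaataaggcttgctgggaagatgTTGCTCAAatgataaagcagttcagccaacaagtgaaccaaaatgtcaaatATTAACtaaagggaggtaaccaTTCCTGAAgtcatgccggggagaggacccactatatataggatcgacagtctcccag
Fgg: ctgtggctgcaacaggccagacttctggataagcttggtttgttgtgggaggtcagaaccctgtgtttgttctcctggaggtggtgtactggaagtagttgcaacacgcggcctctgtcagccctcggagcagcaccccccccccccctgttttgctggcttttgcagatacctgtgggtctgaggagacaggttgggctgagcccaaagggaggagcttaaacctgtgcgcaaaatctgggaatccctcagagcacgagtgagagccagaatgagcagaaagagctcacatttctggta
The promoters of Fga and Fgb hold all 3 motifs, and none of these letters is in the window of Fgg. Of 27 measured members with a promoter in the table, 6 hold the HNF1 half-site (22.2%, against 7.2% of all 27025 promoters, 1 per gene), 17 the C/EBP motif (63% against 40.7%) and 4 the STAT motif (14.8% against 8.47%). These shares describe letters and were not tested.

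Among the inhibitors and the protein C system 6 of 10 had higher means in KO. Pros1, protein S, the cofactor of activated protein C, read 8.41, 7.96 and 8.19 in WT livers, against 8.55, 8.55, 8.68, 8.33 and 8.57 in KO livers. All KO arrays lay above WT arrays 2 and 3, and WT array 1 lay above KO array 4 only. Its log2 difference of 0.35 (SE 0.143, 95% interval 0.034 to 0.67), or 1.27-fold, had an unadjusted p of 0.0333 and an adjusted p of 0.798 in limma, and was 0.34 without KO arrays 1 and 2. In single omissions it ran from 0.24 to 0.46. Proc, protein C itself, read 9.84, 10.14 and 10.07 in WT livers, against 10.24, 10.24, 10.01, 10.16 and 9.86 in KO livers, with WT array 1 the lowest and KO array 5 next, and a log2 difference of 0.084 (SE 0.142, 95% interval -0.23 to 0.40) that was -0.0033 without WT array 1. Thbd, thrombomodulin, the surface partner that turns thrombin on protein C, was dim and read 4.38, 4.12 and 3.96 in WT livers, against 5.13, 3.84, 4.64, 4.32 and 4.56 in KO livers. KO array 1 was the highest and KO array 2 the lowest, and the log2 difference of 0.34 (SE 0.249, 95% interval -0.21 to 0.89) was 0.18 with KO array 1 left out and 0.51 with KO array 2 left out. Procr, the endothelial protein C receptor, was dim and read 3.18, 3.38 and 4.63 in WT livers, against 3.81, 3.29, 4.08, 4.54 and 4.04 in KO livers. WT array 3 was the highest of all arrays, and the log2 difference of 0.22 (SE 0.342, 95% interval -0.54 to 0.98) had a wide interval, at -0.054 with WT array 1 omitted and 0.67 with WT array 3 omitted.

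Serpinc1, antithrombin, the main inhibitor of thrombin, read 11.41, 11.42 and 11.54 in WT livers, against 11.35, 11.50, 11.39, 11.29 and 11.38 in KO livers. Here 4 of 5 KO arrays lay below all WT arrays and KO array 2 lay among them, with a log2 difference of -0.078 (SE 0.118, 95% interval -0.34 to 0.18) that ran from -0.11 to -0.038 in single omissions. Serpind1, heparin cofactor II, differed by 0.086 (SE 0.139), or 0.020 to 0.15 in single omissions. Serpina10, which inhibits factor X with protein Z as its cofactor, differed by 0.20 (SE 0.198). That was 0.095 with KO array 2 left out, 0.097 with WT array 1 left out, 0.34 with WT array 3 left out and 0.0090 without KO arrays 1 and 2. Proz, protein Z, differed by -0.035 (SE 0.172), a sign that turned on omitting WT array 3 (0.070), or instead KO array 4 (0.035) or 5 (0.025). Tfpi2, a Kunitz inhibitor related to tissue factor pathway inhibitor, read 8.15 ± 0.24 (SD, n = 3) in WT against 7.83 ± 0.136 (SD, n = 5) in KO and was the brighter member with the lowest difference, a log2 difference of -0.31 (SE 0.148, 95% interval -0.64 to 0.012). It was -0.18 without WT array 1, the highest array. Tfpi, the tissue factor pathway inhibitor, was dim and differed by -0.19 (SE 0.238), by -0.32 to -0.051 in single omissions and by 0.10 without KO arrays 1 and 2, which read 3.98 and 4.02.

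In fibrinolysis 5 of 6 measured genes had higher means in KO, with a median log2 difference of 0.24. That median was 0.13 without KO arrays 1 and 2, and 0.16 over the 3 brighter genes, Hrg, Plg and Serpinf2. Hrg, histidine-rich glycoprotein, a plasma protein that binds plasminogen and heparin, read 11.25, 11.32 and 11.36 in WT livers, against 11.50, 11.46, 11.52, 11.44 and 11.38 in KO livers. Each KO array lay above each WT array, but the lowest KO array exceeded the highest WT array by little, at 11.38 against 11.36. The log2 difference of 0.15 (SE 0.115, 95% interval -0.10 to 0.41), or 1.11-fold, had an adjusted p of 0.889 in limma, and ran from 0.12 to 0.17 in single omissions. Plg, plasminogen, the precursor of plasmin, read 11.48, 11.62 and 11.62 in WT livers, against 11.86, 11.85, 11.78, 11.63 and 11.53 in KO livers. KO arrays 1 to 3 lay above all WT arrays and KO array 5 among them. KO array 4 was level with the highest WT array, at 11.626 against 11.625 for WT array 2. The log2 difference was 0.16 (SE 0.131, 95% interval -0.13 to 0.45). Serpinf2, the alpha-2-antiplasmin that inhibits plasmin, read 10.4 ± 0.103 (SD, n = 3) in WT against 10.7 ± 0.229 (SD, n = 5) in KO, giving a log2 difference of 0.32 (SE 0.155, 95% interval -0.020 to 0.67). Its KO values were highest in KO arrays 1 and 2 (10.96 and 10.91), and the difference was 0.19 without them.

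The activators of plasminogen and the urokinase receptor were dim, with means under 5. Plau, urokinase, read 4.01, 3.97 and 4.01 in WT livers, against 4.58, 4.40, 4.40, 4.59 and 3.89 in KO livers. The WT arrays lay close together, 4 KO arrays lay above them and KO array 5 below, with a log2 difference of 0.38 (SE 0.17, 95% interval -0.0016 to 0.75) and an unadjusted p of 0.0508 in limma. Plaur, its receptor, read 3.00, 2.94 and 2.67 in WT livers, against 3.87, 4.39, 3.15, 3.07 and 2.76 in KO livers. KO arrays 1 and 2 were the highest, and the log2 difference of 0.58 (SE 0.324, 95% interval -0.14 to 1.29) was 0.12 without them and ran from 0.34 to 0.75 in single omissions. Plat, tissue plasminogen activator, read 3.85, 2.34 and 2.40 in WT livers, against 2.78, 2.67, 2.55, 2.52 and 2.68 in KO livers. WT array 1 stood alone at the top while the other arrays lay between 2.34 and 2.78, and the log2 difference of -0.22 (SE 0.298, 95% interval -0.88 to 0.44) was 0.27 without it. The macrophage markers averaged 5.97 to 6.47 over the WT arrays and 5.75 to 6.89 over the KO arrays, with Marco the 1 of 10 under 5, and the neutrophil markers 2.35 to 2.57 over the WT arrays and 2.33 to 2.81 over the KO arrays, with all 8 under 5. Their part in the values of Plaur was not tested.

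The promoters of Hrg and Pros1 are shown because these were the members without overlap and with the smallest p. They lie at chr16:22950822-22951121 (+ strand) and chr16:62854057-62854356 (+ strand), with source, window and capitals as for the fibrinogen genes.
Hrg: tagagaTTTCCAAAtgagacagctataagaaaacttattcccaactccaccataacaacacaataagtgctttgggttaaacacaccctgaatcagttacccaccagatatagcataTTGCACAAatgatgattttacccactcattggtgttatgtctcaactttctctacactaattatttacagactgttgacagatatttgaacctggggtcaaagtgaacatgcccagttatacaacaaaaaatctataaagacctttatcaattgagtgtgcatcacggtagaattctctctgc
Pros1: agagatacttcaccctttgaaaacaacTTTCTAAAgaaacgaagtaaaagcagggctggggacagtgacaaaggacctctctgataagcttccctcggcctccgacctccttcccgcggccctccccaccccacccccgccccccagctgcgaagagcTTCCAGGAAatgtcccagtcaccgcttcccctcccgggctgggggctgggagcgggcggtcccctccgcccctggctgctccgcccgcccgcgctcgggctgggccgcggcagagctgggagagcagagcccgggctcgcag
Hrg holds a pair of C/EBP matches and neither other motif, and Pros1 holds 1 C/EBP match and 1 STAT match.

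The enzymes of the vitamin K cycle, on which factors II, VII, IX and X and proteins C, S and Z depend, differed little. Vkorc1, the reductase that warfarin blocks, read 9.70, 9.88 and 9.76 in WT livers, against 9.65, 9.997, 9.99, 9.71 and 9.63 in KO livers. KO arrays 2 and 3 were the highest and the groups overlapped, with a log2 difference of 0.014 (SE 0.141, 95% interval -0.30 to 0.33) whose sign turned on omitting WT array 1 (-0.027), or instead KO array 2 (-0.036) or 3 (-0.035). Ggcx, the carboxylase that uses the vitamin, read 8.56 ± 0.069 (SD, n = 3) in WT against 8.5 ± 0.112 (SD, n = 5) in KO, with a difference of -0.059 (SE 0.124) that ran from -0.10 to -0.019 in single omissions.

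Other genes of the pathway, from a list drawn up by role, were 25 of 36 higher in KO, against 49.6% of all clusters. Their median log2 difference was 0.036, with 0 past the adjusted threshold. Of receptors and platelet surface proteins 6 of 8 were higher, of secretion, processing and clearance genes 6 of 11, and of other plasma proteases and inhibitors 13 of 17. Means were under 5 for 14 of the 36, among them 7 of the 8 receptor and platelet surface genes. An unadjusted p under 0.05 in limma was reached by 2 of the 36, the dim Gp5 and Itga2b, both higher in KO. The share of all clusters was 6.08% in either direction and 2.75% with KO higher. The groups did not overlap in 1, Itga2b, against 4.43% of all clusters in either direction. The smallest p among the pathway genes higher in KO belonged to Gp5, a platelet glycoprotein, with a difference of 0.72 (SE 0.265) at a dim mean of 2.26 and an adjusted p of 0.795 in limma. Among those lower it belonged to Nqo1, a quinone reductase, with -0.43 (SE 0.204) and an adjusted p of 0.838. The platelet and megakaryocyte markers, 8 of 10 measured and all but Clec1b under 5, averaged 3.06 to 3.29 over the WT arrays and 3.2 to 3.53 over the KO arrays. Gp5, Itga2b and Gp9 are on both this marker list and the pathway list, so the lists share values. The part of these markers in the pathway values was not tested. Stellate markers averaged 6.09 to 6.24 over the WT arrays and 5.92 to 6.29 over the KO arrays, and the cholangiocyte markers, 4 of 5 measured, averaged 3.93 to 4.14 over the WT arrays and 3.92 to 4.17 over the KO arrays. Of 5 erythroid markers only Slc4a1 was measured under the naming rule, at 2.49 to 3.01 over the WT arrays and 2.81 to 3.26 over the KO arrays. Of the liver transcription factors, 6 of 13 were higher in KO, and 0 passed the adjusted threshold. All but Cebpd had means of at least 5, where 40.1% of clusters were higher, against 49.6% of all clusters. The median log2 difference of the 13 was -0.049. An unadjusted p under 0.05 in limma was reached by 5 of the 13, against 6.08% of all clusters in either direction. Of the 7699 clusters with means of at least 5, 137 reached it with KO higher and 301 with KO lower. Each of the 5 had an adjusted p of at least 0.795, and the list was not tested. Higher in KO were Cebpb, a C/EBP factor induced in the acute phase, by 0.62 (SE 0.226), and Dbp, a clock output factor, by 0.57 (SE 0.214). Lower were the hepatocyte factors Foxa1, by -0.60 (SE 0.167), Foxa2, by -0.47 (SE 0.171), and Onecut1, by -0.60 (SE 0.244). The rest of the 13 went both ways. Hnf4a (0.076), Nr5a2 (0.017), Stat3 (0.12) and the dim Cebpd (0.22) were higher. Cebpa (-0.049), Foxa3 (-0.25), Prox1 (-0.29) and Nr1h4 (-0.32) were lower. The groups did not overlap for 3 of the 13 (Cebpb, Dbp and Foxa1), against 4.43% of all clusters in either direction. Of the 7699 clusters with means of at least 5, 466 had no overlap.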

How the data were processed

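Liver RNA (200 ng per sample) from 3 WT and 5 Abhd15 KO mice was hybridised to 1 array each. The authors deposited log2 expression values for 41345 transcript clusters. Per the submitters' processing notes RMA and oligo were used, and per the design text Expression Console. Settings, versions and build are not stated there. RMA usually compresses differences of dim clusters. The log2 scale was read from the values, which ran from 0.409 to 13.3. No scanner files, slide or scan date were used here, so no batch could be tested. Precision is limited by the number of arrays.

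Clusters were named from the platform annotation: 23521 have 1 symbol, 1814 several and 16010 are unlisted. KO minus WT was fitted with limma 3.58.1 in R 4.3.3, lmFit and eBayes without trend or covariates, with 6 residual degrees of freedom, two-sided, and a Benjamini-Hochberg adjusted threshold of 0.05 over 23521 clusters. The fit was tested on simulated data with independent noise and planted differences larger than that of any member. That test cannot speak for differences as small as those here. Members and lists were chosen with earlier results of these data known, so no list was tested. Values of every array are given for members with an unadjusted p under 0.05, without overlap, among the 5 largest differences or the 3 largest ranges, and for 11 members fixed by name. Alternatives were array omission, scaling, prior, filter, cluster set, cluster choice and replicate block. Pairs of arrays with the same number had correlated deviations of -0.14, 0.073 and 0.060 over 7699 clusters, so the numbers were not taken to pair the samples.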

Additional observations from a re-analysis of the deposited data

Results flagged for a closer look

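In 3 of 35 members 1 KO array lay far from the other 4, by the gap to its neighbour against the range, where chance marks about 1 group in 20. F5 in KO array 4 had a log2 value of 10.43 against 10.80 for the next. F12 in KO array 5 had 10.50 against 10.70. Plau in KO array 5 had 3.89 against 4.40, at a dim level. Groups of 3, such as WT, were not examined this way.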

How the results depend on the processing

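The count of members past the adjusted threshold was 0 under all 16 alternatives run, with a smallest adjusted p of 0.543. The number of members with higher means was 23 to 28 of 35 in single omissions and 23 without KO arrays 1 and 2, and the median log2 difference ran from 0.076 to 0.14 in single omissions. Quantile normalization of the values gave a median of 0.12 and moved the share of clusters with means of at least 5 that were higher from 40.1% to 49.2%, with 22 of 26 members higher. The replicate block (numbers 1 to 3, 6 arrays) called 0 members, with 28 higher and a median of 0.15, and turned the sign of Proz (0.14), Procr (-0.0030) and Ggcx (0.0097). The sign also turned without KO arrays 1 and 2 for F3 (0.19), F5 (-0.051), F2 (-0.056), F9 (-0.0013), Fga (-0.015), Tfpi (0.10), Proc (-0.010) and Vkorc1 (-0.0040). In single omissions it turned for 11 members, with ranges of -0.32 to 0.092 for F3, -0.0053 to 0.11 for F5, -0.031 to 0.17 for F8, -0.026 to 0.044 for F9, -0.0053 to 0.071 for Fga, -0.48 to 0.27 for Plat, -0.0033 to 0.14 for Proc, -0.054 to 0.67 for Procr, -0.14 to 0.070 for Proz, -0.036 to 0.064 for Vkorc1 and -0.049 to 0.28 for Vwf. The causes were not tested. The difference of the brighter Abhd15 cluster ran from -0.61 to -0.43 in single omissions. Where clusters are dim, as in 9 members, the signal over background limits what can be seen.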
